A study of Homo sapiens with 12 samples.

Results

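MHC class II molecules are the cell-surface proteins that show peptides to CD4+ T cells, and CIITA is the transcriptional activator on which their genes depend. The 10 genes described here are CIITA, CD74, HLA-DRA, HLA-DRB1, HLA-DRB5, HLA-DPA1, HLA-DPB1, HLA-DMA, HLA-DMB and HLA-DOA, taken as the rows of the deposited gene table with those symbols. They are 10 of 57773 genes in the table, and each symbol had 1 row. The list was selected on results of these same libraries, in which CIITA was already known to be low after TGFβ, so the values in that comparison are given as a description without a test.

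RNA of MDA-MB-231 was sequenced in 12 libraries in 4 groups of 3. MDA-MB-231 is an established human triple-negative breast cancer line, cultured in flasks in medium with serum. All libraries came from this single line, so the groups are a model of 1 tumour without stroma or immune cells. The groups are untreated cells (CTL), cells given TGFβ (TGFB), cells given alisertib (ALIS) and cells given both agents (Combination), and treatment lasted 48 h. TGFβ is a cytokine whose receptors activate SMAD transcription factors, and alisertib inhibits Aurora A, a kinase of mitosis. The labels used here name no dose, solvent or TGFβ isoform. The labels do not state whether replicates are separate cultures, so the p-values reflect the spread between libraries, which may be technical.

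In an antigen-presenting cell the α and β chains of a class II molecule assemble in the endoplasmic reticulum with the invariant chain, the product of CD74, which blocks the groove and directs the complex to endosomes. There proteases cut the invariant chain, and the HLA-DM dimer (HLA-DMA with HLA-DMB) exchanges its last fragment for a peptide. HLA-DO, made of HLA-DOA with HLA-DOB, inhibits that exchange. The genes share an upstream module of promoter elements called the W or S, X and Y boxes. The RFX complex, CREB and the NF-Y complex bind it, and CIITA, which does not bind DNA itself, joins them and recruits histone-modifying enzymes. Interferon gamma induces CIITA in many cell types that are not professional antigen-presenting cells, and some cancer cells express class II without it. TGFβ is a known repressor of CIITA expression.

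The shared module is printed for the members because it is the sequence through which CIITA acts on them. Promoter windows from RefSeq (GRCh38.p14), 250 bases before to 50 bases after a gene's start, matched 8 of the 10 members by symbol, and HLA-DPA1 had 2 windows, so 9 windows were read. No entry was matched for CIITA or HLA-DRA. The search was for an X box, written as CNAGNNAC, then any 1 base, then GATG, followed after 18 to 26 bases by a Y box, ATTGG or its reverse complement CCAAT. Both strands were searched, and the 2 boxes together have 14 informative letters. The letters were set with class II promoters in view. A match is a description of the letters and not a measured binding site. In each sequence the capitals mark the best X box and the best Y box, in that order, read 5′ to 3′ on the gene's strand.
HLA-DRB1: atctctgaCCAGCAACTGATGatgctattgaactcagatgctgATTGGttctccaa
HLA-DRB5: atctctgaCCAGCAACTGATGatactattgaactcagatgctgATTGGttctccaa
HLA-DMA: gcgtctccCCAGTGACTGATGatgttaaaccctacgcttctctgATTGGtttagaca
HLA-DMB: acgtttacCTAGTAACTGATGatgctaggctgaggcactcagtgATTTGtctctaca
HLA-DOA: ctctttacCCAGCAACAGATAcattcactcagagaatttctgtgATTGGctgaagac
HLA-DPB1: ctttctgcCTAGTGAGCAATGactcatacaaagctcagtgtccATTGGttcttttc
HLA-DPA1: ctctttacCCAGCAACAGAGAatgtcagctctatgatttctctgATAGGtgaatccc
CD74: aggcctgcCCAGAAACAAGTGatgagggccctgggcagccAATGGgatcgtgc
HLA-DOB: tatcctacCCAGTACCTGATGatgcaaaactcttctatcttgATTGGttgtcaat
HLA-DOB is no member of the list and is shown as the class II gene with the smallest difference after TGFβ.

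In GRCh38.p14 these stretches lie at chr6:32589882-32589937 for HLA-DRB1, chr6:32530365-32530420 for HLA-DRB5, chr6:32953164-32953220 for HLA-DMA, chr6:32941070-32941126 for HLA-DMB and chr6:33009646-33009702 for HLA-DOA. The stretch of HLA-DPB1 lies at chr6:33075848-33075903, that of HLA-DPA1 at chr6:33073702-33073758, that of HLA-DOB at chr6:32817088-32817142 and that of CD74 at chr5:150412949-150413001. HLA-DPB1 is on the plus strand and the others are on the minus strand. HLA-DRB1, HLA-DRB5 and HLA-DMA matched all 14 letters, HLA-DMB and HLA-DOA missed 1, HLA-DPB1 missed 2, and HLA-DPA1 and CD74 missed 3. The second HLA-DPA1 window is not printed: its best match missed 4 letters, and its X box began after the start. Among 35116 promoter windows of the same length, 0.0199% matched every letter, 0.0997% matched with at most 1 mismatch, 1.81% with at most 2, 19.2% with at most 3 and 75.3% with at most 4. The matches of HLA-DPA1 and CD74 are thus of a kind found in many unrelated promoters. The Y box alone is common, since 34.6% of all windows hold one, as do 7 of the 9 member windows.

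**Figure D1:**
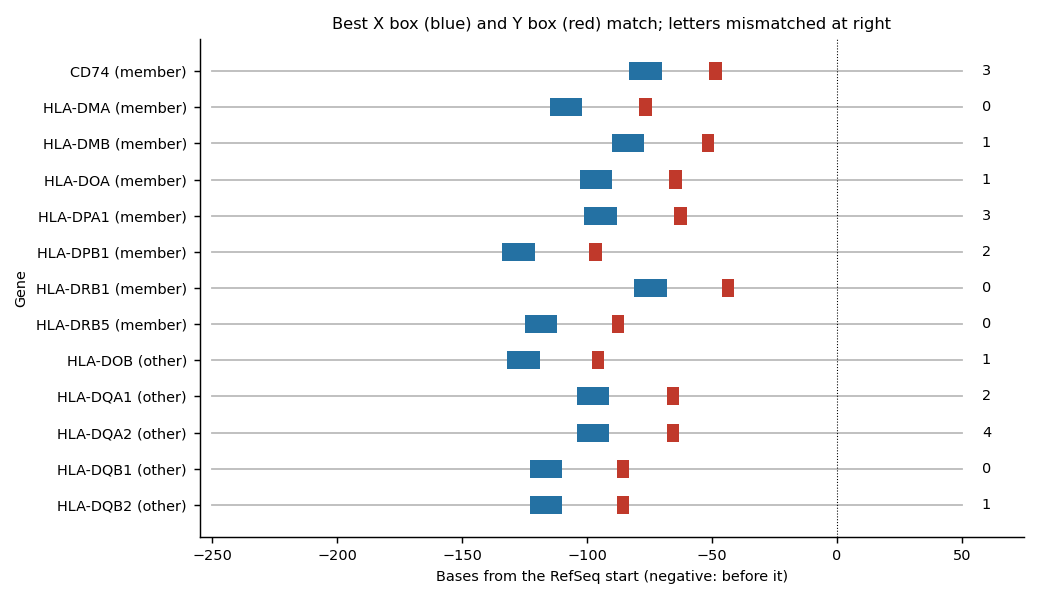
Position of the best X box (blue) and Y box (red) in the RefSeq promoter window of each class II gene with an entry, in bases from the start (dotted line), with the number of mismatched letters at right. The X box begins between 81 and 134 bases before the start in the 8 member genes drawn, and HLA-DOB, HLA-DQA1, HLA-DQA2, HLA-DQB1 and HLA-DQB2 are drawn as class II genes outside the list. The second window of HLA-DPA1 is not drawn, because its best match begins after the start.

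Library totals ran from 93701658 to 120619368 reads counted in genes, which is deep enough that every member was tested in all 12 libraries. The members took 0.0738% to 0.0894% of all counts in untreated libraries and 0.0148% to 0.0156% with TGFβ. The label of the line was checked on its markers: VIM, CD44 and EGFR were high (1230 ± 5.85, 1181 ± 102 and 393 ± 9.27 CPM in untreated cells, SD, n = 3), ESR1 and PGR stayed under 0.05 CPM in each library, and ERBB2 was at 65.1 ± 13.8 CPM. Of the genes of luminal epithelium also checked, KRT8, KRT18 and EPCAM were expressed. They read 278 ± 48.0, 320 ± 26.8 and 17.95 ± 1.55 CPM in untreated cells (SD, n = 3). CPM express each count relative to the TMM-scaled total of its library. Replicates 1, 6, 9 and 10, 1 in each group, stood apart from the rest of their groups in earlier results of these data. Here replicate 1 lay under the untreated mean for 9 of the 10 members (median deviation -0.17 on the log2 scale), and replicate 10 lay above the mean of the cells given both agents for 9 of 10 (median 0.22). Results that rest on these libraries are given with and without them.

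CIITA is encoded on chromosome 16 (hg19, as are all gene coordinates that follow, 10971055 to 11026079; ENSG00000179583). Its level was 24.4, 29.9 and 32.4 CPM in the 3 untreated libraries and 0.928, 0.937 and 0.953 CPM in the 3 libraries given TGFβ. The untreated values were spread out, whereas the TGFβ values lay almost on top of each other and far below. With alisertib alone CIITA stood at 24.1, 26.1 and 23.7 CPM, inside the untreated range or just under it. With both agents it stood at 1.94, 1.58 and 1.07 CPM, each higher than any library given TGFβ alone. The reads behind the lowest values were still numerous, at 99 to 109 per library with TGFβ and 124 to 201 with both agents. The CIITA row shares 3332 bases with DEXI, which was at 11.5 ± 0.92 CPM with TGFβ and 12.2 ± 0.70 with both agents (SD, n = 3). The libraries do not mark the strand, so reads of that stretch cannot be told apart. Their part in the low CIITA values was not tested.

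CD74, the invariant chain gene, lies on chromosome 5 (149781200 to 149792492; ENSG00000019582). It was at 267, 363 and 351 CPM in untreated cells and 100.5, 106 and 95.9 CPM with TGFβ. It was at 297, 296 and 266 CPM with alisertib and 101, 106 and 105 CPM with both agents. The 6 libraries given TGFβ, with or without alisertib, lay in 1 narrow band. Among the others, untreated replicate 1 and alisertib replicate 9 were the lowest.

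HLA-DRA encodes the α chain of HLA-DR (chromosome 6, 32407619 to 32412823, ENSG00000204287). It read 222, 221 and 218 CPM in untreated cells, 19.7, 19.4 and 20.2 CPM with TGFβ, 163, 172 and 171 CPM with alisertib, and 24.3, 15.8 and 16.2 CPM with both agents. Replicates of the first 3 groups were close together, while replicate 10 of the cells given both agents lay well above the other 2. HLA-DRB1, the main β chain of HLA-DR (32546546 to 32557625; ENSG00000196126), read 39.8, 46.7 and 52.4 CPM untreated and 8.48, 8.41 and 8.15 CPM with TGFβ. It read 40.5, 40.1 and 35.2 CPM with alisertib and 8.998, 8.53 and 7.76 CPM with both agents. HLA-DRB5, a second HLA-DR β chain gene (32485120 to 32498064; ENSG00000198502), was at 3.62 to 4.93 CPM untreated, 0.744 to 1.04 after TGFβ, 3.60 to 3.95 after alisertib and 0.728 to 1.02 after the 2 agents together. Reads of these near-identical genes can be exchanged between them, so the values of HLA-DRB1 and HLA-DRB5 are uncertain singly. Their sum was 50.4 ± 6.46 CPM untreated, 9.28 ± 0.336 with TGFβ, 42.4 ± 2.75 with alisertib and 9.30 ± 0.705 with both (SD, n = 3).

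HLA-DPA1 and HLA-DPB1 encode the α and β chains of HLA-DP and overlap head to head over 4850 bases (33032346 to 33048552 and 33043703 to 33054978; ENSG00000231389 and ENSG00000223865). The libraries do not mark the strand, so reads from the shared stretch cannot be told apart. HLA-DPA1 read 61.4, 71.5 and 75.9 CPM untreated, 14.2, 13.8 and 13.6 CPM with TGFβ, 53.9, 61.0 and 52.6 CPM with alisertib and 15.8, 15.4 and 14.3 CPM with both. HLA-DPB1 read 33.3, 38.9 and 37.7 CPM untreated, 4.85, 4.17 and 4.65 CPM with TGFβ, 29.5, 30.3 and 28.8 CPM with alisertib and 5.86, 4.79 and 4.71 CPM with both. In both genes the untreated libraries were the highest 3 and the alisertib libraries the next 3.

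HLA-DMA (32916390 to 32936871; ENSG00000204257) and HLA-DMB (32902406 to 32908847; ENSG00000242574) encode the peptide exchange factor. HLA-DMA read 45.8, 53.1 and 49.5 CPM untreated, 6.88, 6.05 and 6.47 CPM with TGFβ, 35.5, 38.3 and 35.8 CPM with alisertib and 7.30, 6.57 and 5.94 CPM with both. HLA-DMB read 30.1, 32.1 and 32.0 CPM untreated, 2.61, 2.78 and 2.49 CPM with TGFβ, 21.5, 23.2 and 22.3 CPM with alisertib and 3.47, 2.31 and 2.26 CPM with both. Replicate 10 stood above the others given both agents in HLA-DMB, and the groups with and without TGFβ did not overlap for either chain. The HLA-DMA row shares 435 bases with BRD2, a gene at 292 ± 6.66 CPM with TGFβ, and both DM rows overlap a clone-based gene at 9.31 CPM over all libraries.

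HLA-DOA, the α chain of the inhibitor HLA-DO (32971955 to 32977389; ENSG00000204252), had the lowest mean level per length of the members in every group, close to that of CIITA with TGFβ. It read 3.78, 4.84 and 5.39 CPM untreated, 0.366, 0.244 and 0.210 CPM with TGFβ, 2.65, 3.04 and 3.43 CPM with alisertib and 0.376, 0.184 and 0.189 CPM with both. With TGFβ these are 24 to 39 reads per library, and with both agents 20 to 39, so its values there are the least precise of the list.

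**Figure D2:**
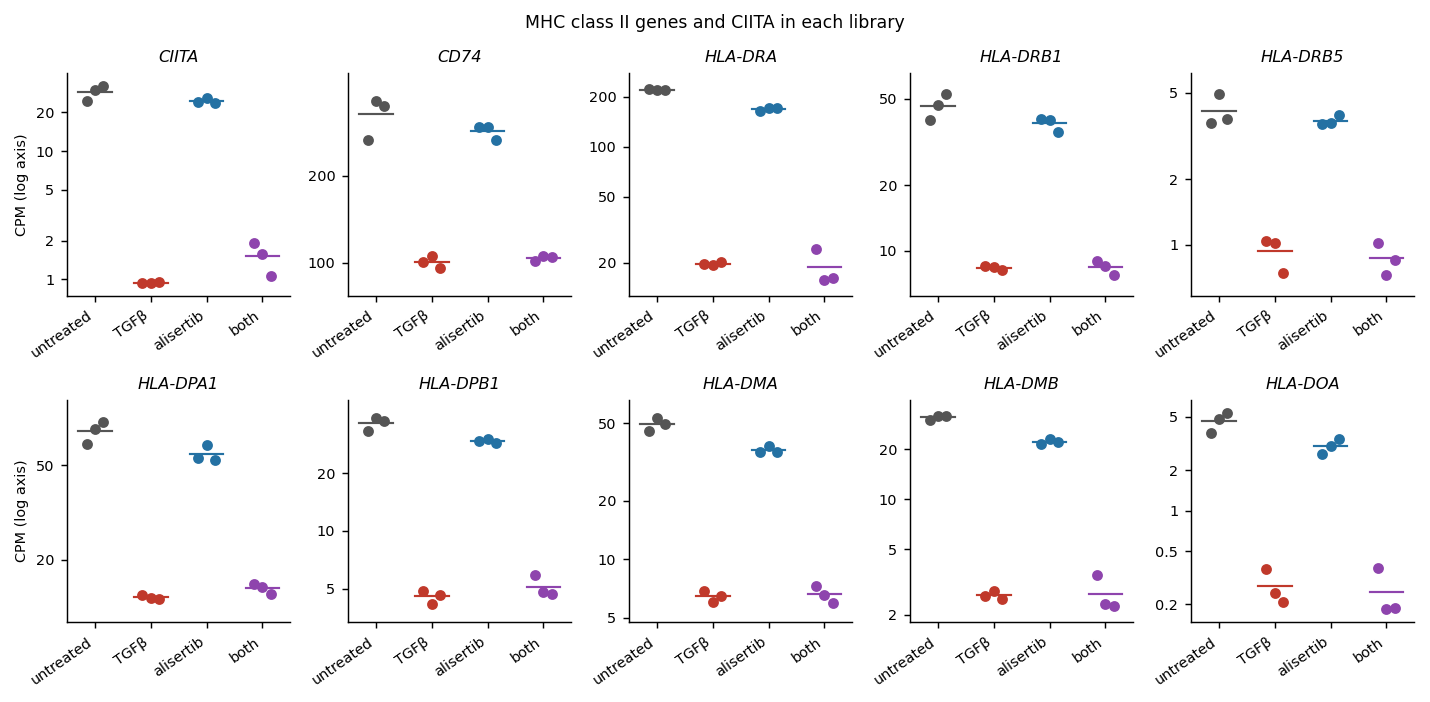
Level of each of the 10 genes in each of the 12 libraries, in CPM on a log axis, with a bar at the mean of 3 libraries per group. In every panel the 6 libraries given TGFβ, alone or with alisertib, lie below the 6 libraries without it.

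TGFβ was accompanied by lower levels of every member, from 3.26% of the untreated level for CIITA to 30.8% for CD74. The log2 fold change was -4.94 ± 0.18 (SE) for CIITA, -4.10 ± 0.25 for HLA-DOA, -3.58 ± 0.13 for HLA-DMB and -3.48 ± 0.13 for HLA-DRA. It was -3.01 ± 0.10 for HLA-DPB1, -2.93 ± 0.09 for HLA-DMA, -2.47 ± 0.10 for HLA-DRB1, -2.33 ± 0.08 for HLA-DPA1, -2.14 ± 0.17 for HLA-DRB5 and -1.70 ± 0.09 for CD74. These are 10 of 10 lower without overlap between the groups, beside 24.4% of all genes, with a median of -2.97 against -0.01 over all 20571 genes tested. In this comparison 38.6% of all genes were called changed by edgeR and 20.1% were called lower; because the list was selected on this contrast, nothing is read from the members' count. Only 38 tested genes had a lower log2 fold change than CIITA. In a bulk sample, fewer cells expressing a gene and less RNA per cell cannot be told apart.

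The fall after TGFβ was tested in cells that also received alisertib, in 6 libraries that share none with the comparison above. The test is still not independent of that comparison, because the fit behind its p-values used the libraries of all groups. The members were also chosen with earlier results of these data known. All 10 members were called lower (edgeR quasi-likelihood test, Benjamini-Hochberg adjustment), where 19.0% of all genes were. CIITA fell 16.2-fold (log2 fold change -4.02 ± 0.17, adjusted p = 1.58e-10) and HLA-DOA fell 12.2-fold (-3.61 ± 0.25, adjusted p = 4.07e-08). HLA-DRA fell 8.99-fold (-3.17 ± 0.12, adjusted p = 1.01e-10) and HLA-DMB fell 8.35-fold (-3.06 ± 0.13, adjusted p = 2.07e-10). These 4 genes also had the largest changes in cells without alisertib.

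HLA-DPB1 fell 5.77-fold with alisertib present (-2.53 ± 0.10, adjusted p = 6.93e-11) and HLA-DMA 5.53-fold (-2.47 ± 0.09, adjusted p = 3.56e-11). HLA-DRB1 fell 4.58-fold (-2.20 ± 0.10, adjusted p = 3.08e-10), HLA-DRB5 4.31-fold (-2.11 ± 0.17, adjusted p = 1.53e-07) and HLA-DPA1 3.68-fold (-1.88 ± 0.08, adjusted p = 2.65e-10). CD74 fell least, 2.76-fold (-1.46 ± 0.09, adjusted p = 1.35e-08). The median of the 10 was -2.50, beside 0.01 over all genes tested. The order of the members was the one seen without alisertib except that HLA-DRA and HLA-DMB, and HLA-DPA1 and HLA-DRB5, changed places, and the SE ranges of each of these pairs met. All 10 were called lower with DESeq2, without a filter on low counts, without any 1 library, without the 4 libraries that stood apart, with a term for them, and with only the 2 groups compared.

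**Figure D3:**
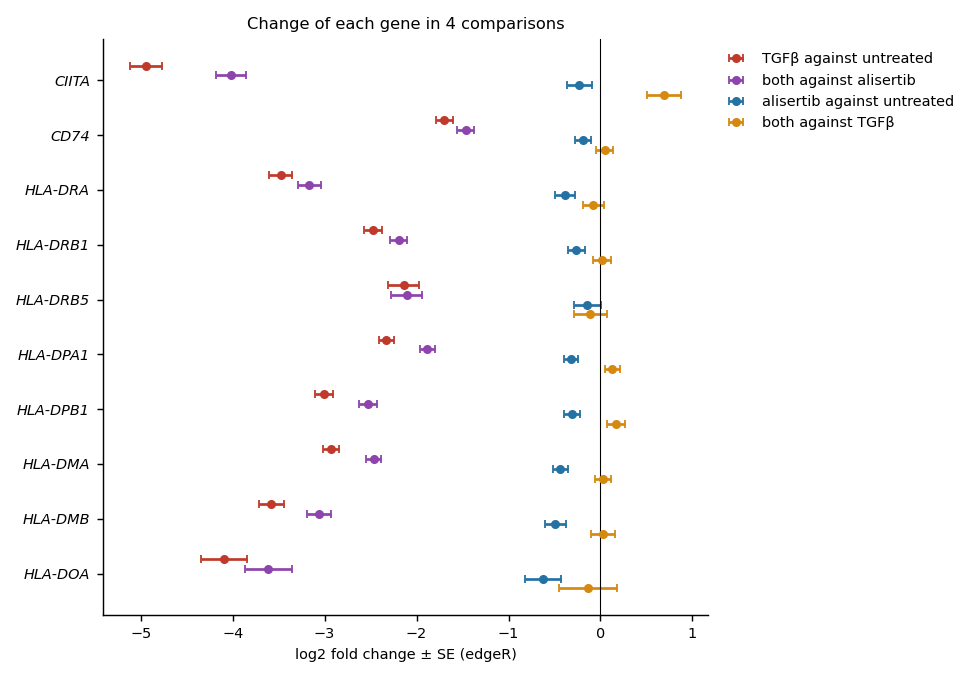
Log2 fold change ± SE from edgeR for the 10 genes in 4 comparisons; bars to the left of the vertical line are lower in the first-named group. Both comparisons of TGFβ lie between -4.94 and -1.46, whereas alisertib without TGFβ lies between -0.62 and -0.14 and alisertib with TGFβ between -0.14 and 0.69.

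Alisertib without TGFβ came with slightly lower class II levels. The untreated libraries also belong to the contrast the list was selected on. The p-values and counts here are therefore not independent of that selection. The members also share these libraries, so their common sign is not a set of separate results. All 10 log2 fold changes were negative, and 4 members were called lower, where 3.19% of all genes were: HLA-DMB (-0.49 ± 0.12, adjusted p = 0.0213), HLA-DMA (-0.44 ± 0.08, adjusted p = 0.00433), HLA-DPA1 (-0.32 ± 0.08, adjusted p = 0.0267) and HLA-DPB1 (-0.31 ± 0.09, adjusted p = 0.0492), in edgeR. They fell to between 71.1% and 80.6% of the untreated level, and all 3 alisertib libraries lay under all 3 untreated ones. HLA-DOA (-0.62 ± 0.19, adjusted p = 0.0767 in edgeR) and HLA-DRA (-0.39 ± 0.11, adjusted p = 0.0593) also had no overlap but missed the threshold, which makes 6 members lower without overlap, beside 10.4% of all genes. CIITA (-0.23 ± 0.14, edgeR adjusted p = 0.403), CD74 (-0.19 ± 0.09, adjusted p = 0.258), HLA-DRB1 (-0.26 ± 0.09, adjusted p = 0.114) and HLA-DRB5 (-0.14 ± 0.15, adjusted p = 0.665) overlapped between the groups.

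This count moved with the libraries used. Without the 4 libraries that stood apart 9 members were called lower, where 13.5% of all genes were, and with a term for them 8, where 10.9% were. Without replicate 1 of the untreated cells the count was 7, beside 5.8% of all genes, and without replicate 10 of the cells given both agents it was 6, beside 3.1%. It was 1 without untreated replicate 2 or 3 or without alisertib replicate 7 or 9, beside 1.81%, 1.4%, 1.44% and 1.77% of all genes, and 2 without alisertib replicate 8, beside 1.43%. HLA-DMA was the only member called lower under each of these settings, and HLA-DPB1, nearest to the threshold, lost its call in 11 of 17.

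The libraries given TGFβ alone also belong to the contrast the list was selected on, so the tests below are not independent of it. In cells given TGFβ, alisertib changed no member by the edgeR test, where 2.08% of all genes were called changed in either direction. At an unadjusted p under 0.05 the count was 1, CIITA, and DESeq2 also called 1, again CIITA. CIITA was 1.62-fold higher with both agents than with TGFβ alone (log2 fold change 0.69 ± 0.18, edgeR adjusted p = 0.0752; DESeq2 adjusted p = 0.00446), and higher in 3 of 3 libraries. HLA-DPA1 (0.13 ± 0.08, edgeR adjusted p = 0.587) was the other member whose groups did not overlap, beside 11.1% of all genes in that direction. The other 8 lay between -0.14 and 0.17 with overlapping groups. CIITA at its higher level was still at 1.53 ± 0.438 CPM (SD, n = 3), and HLA-DRA in the same libraries was at 18.8 ± 4.81 CPM against 19.8 ± 0.383 with TGFβ alone. CIITA passed the threshold without untreated replicate 1 (adjusted p = 0.049) and without replicate 12 of the cells given both agents (adjusted p = 0.0127). Without replicate 10 HLA-DRA was called lower (-0.31, adjusted p = 0.00709), as it was without the 4 libraries that stood apart (-0.29, adjusted p = 0.000177).

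The difference between the alisertib effects with and without TGFβ is given without a test, because it holds the contrast the list was selected on. It was positive for every member, at 0.92 ± 0.23 for CIITA, 0.52 ± 0.18 for HLA-DMB, 0.49 ± 0.37 for HLA-DOA, 0.48 ± 0.13 for HLA-DPB1, 0.47 ± 0.12 for HLA-DMA and 0.45 ± 0.11 for HLA-DPA1 on the log2 scale (SE). It was 0.31 ± 0.16 for HLA-DRA, 0.28 ± 0.13 for HLA-DRB1, 0.24 ± 0.13 for CD74 and 0.03 ± 0.23 for HLA-DRB5, and the last turned negative in several of the other settings. For HLA-DMA nearly the whole of the value came from the lower start with alisertib (-0.44 without TGFβ, 0.03 with it), whereas for CIITA most came from the higher end (-0.23 and 0.69). Summed over the 10 genes the level was 818 ± 75.9 CPM untreated, 158 ± 4.59 with TGFβ, 669 ± 25.2 with alisertib and 163 ± 6.2 with both (SD, n = 3). The levels with both agents and with TGFβ alone thus nearly met from different starting points.

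Levels of different genes were compared per length, in RPKM computed from the counts and the deposited gene lengths (mean ± SD, n = 3). In untreated cells HLA-DRA led at 172 ± 1.42, followed by CD74 at 103 ± 16.5, HLA-DRB1 at 37.7 ± 5.13, HLA-DMA at 19.5 ± 1.43, HLA-DPB1 at 12.8 ± 1.04, HLA-DPA1 at 12.1 ± 1.29 and HLA-DMB at 6.75 ± 0.234. HLA-DRB5 at 3.27 ± 0.564, CIITA at 2.40 ± 0.34 and HLA-DOA at 1.16 ± 0.204 came last. HLA-DPB1 and HLA-DPA1, and HLA-DRB5 and CIITA, did not differ beyond their spread.

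With TGFβ the first 2 places were exchanged, an order that rests on the deposited lengths (3184 bases for CD74 and 1280 for HLA-DRA). In CPM, without division by length, CD74 was above HLA-DRA both untreated (327 against 220) and with TGFβ (101 against 19.8). CD74 led at 31.6 ± 1.52 RPKM and HLA-DRA came second at 15.4 ± 0.299, so CD74 was the more abundant transcript per length in all 3 libraries given TGFβ. HLA-DRB1 was at 6.79 ± 0.139, HLA-DMA at 2.55 ± 0.164, HLA-DPA1 at 2.41 ± 0.0572, HLA-DPB1 at 1.59 ± 0.122, HLA-DRB5 at 0.742 ± 0.132 and HLA-DMB at 0.565 ± 0.0314. CIITA at 0.0781 ± 0.00106 and HLA-DOA at 0.0681 ± 0.0204 did not differ beyond their spread, nor did HLA-DMA and HLA-DPA1. With alisertib the order was that of untreated cells, from HLA-DRA at 132 ± 3.59 and CD74 at 89.9 ± 5.44 to CIITA at 2.05 ± 0.106 and HLA-DOA at 0.757 ± 0.0971. With both agents CD74 again led, at 32.6 ± 0.778, and HLA-DRA followed at 14.7 ± 3.76. CIITA was then at 0.127 ± 0.0364 and HLA-DOA at 0.0622 ± 0.0272.

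**Figure D4:**
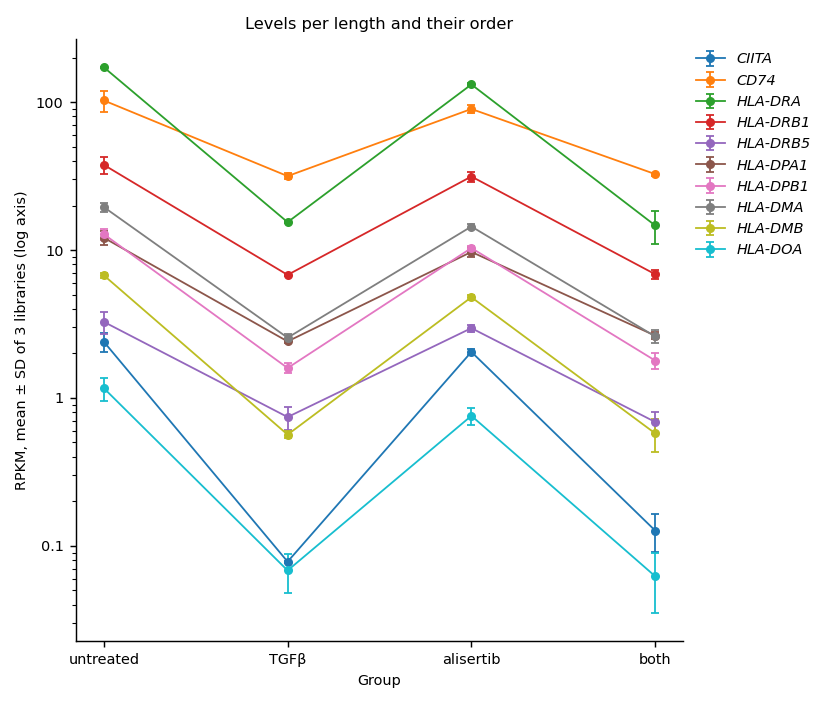
Level per length of the 10 genes in the 4 groups, in RPKM on a log axis, as mean ± SD of 3 libraries; lines join the groups of 1 gene and carry no order in time. The line of HLA-DRA crosses that of CD74 between groups without and with TGFβ, from 172 against 103 RPKM to 15.4 against 31.6. The crossing rests on the deposited gene lengths, and in CPM CD74 was the higher of the pair in every group.

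The profiles of the members over the 12 libraries, each gene centred on its own mean log2 CPM, were compared by the root-mean-square difference, which is 0 for profiles of the same shape and size. The member nearest to CIITA was HLA-DOA (0.519), then HLA-DMB (0.638) and HLA-DRA (0.647), and CD74 was the farthest (1.48). The members nearest to CD74 were HLA-DPA1 (0.28), HLA-DRB5 (0.323) and HLA-DRB1 (0.385). Among 9659 genes of at least 5 CPM on average, those most like CIITA were EVI2B (0.321), DMBT1 (0.333), VIPR1 (0.47), FST (0.481) and SAA2 (0.545). Symbols ending in P and a number were left out of these 9659, and with them coding genes such as TAP1 and LAMP1. EVI2B stood at 22.1 CPM untreated and 1.12 with TGFβ, DMBT1 at 75.7 and 4.13, VIPR1 at 17.3 and 0.866, FST, the activin antagonist follistatin, at 29.9 and 1.95, and SAA2, an acute-phase protein, at 193 and 13.6. None of these 5 is a class II gene. EVI2B, DMBT1, VIPR1 and FST were nearer to CIITA than any other member was, and SAA2 was nearer than any but HLA-DOA.

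Those most like CD74 were ARRB2 (0.076), COL8A1 (0.082), DPYSL2 (0.09), MYLK (0.096) and ERBB3 (0.097). ARRB2, a β-arrestin, stood at 20.1 CPM untreated and 6.47 with TGFβ. COL8A1, a short-chain collagen, stood at 207 and 64.2, and MYLK, the myosin light chain kinase, at 103 and 33.8. All 5 were nearer to CD74 than any other member was. They, like those named for CIITA, are the nearest of 9659 genes, set against far fewer members. Some nearer gene outside the list is therefore likely to be found, and nothing about the class II genes is read from it. The points share their 12 libraries and a single large step between groups, so likeness over them says little beyond the size of that step.

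Other class II genes were also lower. Of 9 such genes set down as a second list 6 could be tested. All 6 fell after TGFβ both without alisertib, where 20.1% of all genes were called lower, and with it, where 19.0% were. Their medians were -1.93 and -1.97. HLA-DRB6, a pseudogene close to HLA-DRB1, fell by 2.11 and by 2.13 on the log2 scale (edgeR adjusted p = 4.69e-08 and 6.87e-08), but it can hold reads of HLA-DRB1 and HLA-DRB5, so its value is uncertain as that of a separate gene. HLA-DQA1, HLA-DQB1, HLA-DQA2 and HLA-DQB2 fell from levels already under 1 CPM, by 1.36 to 2.16 without alisertib. HLA-DRB9, a pseudogene in neither list and named after its values were seen, also fell (by 1.78 ± 0.39 without alisertib, edgeR adjusted p = 0.00209), with the same limit on its reads.

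HLA-DOB, the partner chain of HLA-DOA, behaved unlike it. It read 2.76, 2.21 and 2.47 CPM untreated, 1.87, 1.91 and 1.88 CPM with TGFβ, 3.18, 3.47 and 3.95 CPM with alisertib and 2.79, 2.54 and 2.54 CPM with both. It fell after TGFβ by only 0.39 ± 0.12 on the log2 scale (edgeR adjusted p = 0.0153) and by 0.43 ± 0.11 in cells with alisertib (adjusted p = 0.00801). It rose with alisertib (0.51 ± 0.11, edgeR adjusted p = 0.0157), where HLA-DOA was lower in 3 of 3 libraries, although the difference between the 2 genes was not tested. The call of the rise was lost without untreated replicate 2 (adjusted p = 0.0644), without alisertib replicate 9 (0.0668) and with only the 2 groups compared (0.0776), and that of the fall after TGFβ without untreated replicate 1 (0.068) and without the 4 libraries that stood apart (0.0749). HLA-DOB overlaps TAP2, a gene at 155 ± 5.31 CPM untreated and 120 ± 7.92 with TGFβ, so reads of the shared stretch cannot be told apart.

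Lists of other genes, 104 of which were tested, were read beside the members as related genes. Most belong to the wider class II pathway. The rest are 12 neighbours in the class II region, 9 neighbours of CIITA and CD74, and 8 leukocyte markers. TGFβ changed 61 of the 104 without alisertib and 62 with it, beside 38.6% and 38.4% of all genes, in directions that differed between and within the lists. Of these, 56 were called in both with the same direction, 28 higher and 28 lower, which is 91.8% of the first set and 90.3% of the second, and none was called in opposite directions. Counts within a list are to be read against the shares of all genes called, and several lie near those shares. Without alisertib they were 18.5% higher, 20.1% lower and 38.6% in either direction, and with it 19.4%, 19.0% and 38.4%. Among the factors that bind the class II module 3 of 7 fell and 2 rose. RFX5, the DNA-binding subunit of RFX, fell from 107 ± 1.71 to 74.4 ± 1.61 CPM (SD, n = 3; log2 fold change -0.52 ± 0.04, edgeR adjusted p = 1.32e-07). NFYB fell by 0.45 ± 0.08 (adjusted p = 0.000383) and RFXAP by 0.32 ± 0.10 (adjusted p = 0.018), while NFYA and CREB1 rose by 0.23 and 0.22. RFXAP was not called without untreated replicate 1 (adjusted p = 0.0755) or without TGFβ replicate 4 (0.0862) or 5 (0.0611). With alisertib present RFX5 fell by 0.44 ± 0.04 (adjusted p = 9.63e-07) and NFYB by 0.44 ± 0.08, and RFXAP read -0.17 and did not pass. These changes are far smaller than those of the members.

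Of 15 coactivators and repressors 2 rose and 3 fell after TGFβ. KAT2B, the acetyltransferase PCAF, fell by 1.01 ± 0.08 (edgeR adjusted p = 1.03e-07) and by 0.87 ± 0.08 with alisertib present (adjusted p = 6.39e-07). It read 47.0, 43.3 and 43.8 CPM untreated and 22.1, 20.5 and 23.8 CPM with TGFβ. PRDM1, the repressor Blimp-1, which acts on CIITA promoters in plasma cells, rose by 0.58 ± 0.08 (edgeR adjusted p = 4.56e-05), and EZH2, the histone methyltransferase of Polycomb, fell by 0.47 ± 0.06 (adjusted p = 1.38e-05). CREBBP and EP300, acetyltransferases that CIITA recruits, read 0.01 and -0.07 and did not pass.

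On the interferon gamma route to CIITA 3 of 10 tested genes rose and 3 fell. JAK1 rose by 0.41 ± 0.04 (edgeR adjusted p = 3.72e-06), USF1, which binds a CIITA promoter, by 0.38 ± 0.06 (adjusted p = 6.02e-05) and IFNGR2 by 0.22. Among those that fell were IFNGR1, by 0.38 ± 0.07 (adjusted p = 0.00034), and IRF1, by 0.20 ± 0.07 (adjusted p = 0.0432). IRF1 went from 36.2 ± 2.77 to 31.5 ± 1.36 CPM (SD, n = 3). With alisertib present the same 6 genes passed in the same directions.

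Several endosomal proteases that prepare class II for peptide rose after TGFβ. Of 12 genes of peptide processing 7 rose, 2 fell and 3 did not pass without alisertib, and 8 rose and 2 fell with it. Of all genes 18.5% were called higher without alisertib and 19.4% with it. LGMN, a lysosomal endopeptidase, rose from 53.1 ± 2.82 to 90.5 ± 0.568 CPM (SD, n = 3; log2 fold change 0.77 ± 0.05, edgeR adjusted p = 1.04e-08). CTSS, cathepsin S, which cuts the invariant chain, rose from 28.1 ± 1.47 to 42.7 ± 1.01 CPM (0.60 ± 0.05, edgeR adjusted p = 3.23e-07), and CTSB rose by 0.57 ± 0.06. CTSC fell by 0.52 ± 0.08 (edgeR adjusted p = 6.33e-05) and IFI30, the interferon-induced thiol reductase GILT, by 0.40 ± 0.08 (adjusted p = 0.0012). The median of the list was 0.31, beside -0.01 over all genes tested.

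Among 11 genes of class II trafficking and turnover 4 rose and 2 fell. AP2M1 and CD82, a tetraspanin, each rose by 0.63 (edgeR adjusted p = 2.86e-06 and 0.00649; CD82 did not pass without untreated replicate 1, adjusted p = 0.0642), and CD9, another tetraspanin, fell by 0.39 ± 0.05 (adjusted p = 2.19e-05). The surface partners of CD74 as a receptor for the cytokine MIF moved in opposite directions: CXCR4 fell by 0.85 ± 0.07 (edgeR adjusted p = 3.52e-07) and CD44 rose by 0.59 ± 0.06 (adjusted p = 3.22e-06). Of 9 tested co-signals to T cells 4 rose and 2 fell. ICOSLG, the ICOS ligand, fell by 1.10 ± 0.13 (edgeR adjusted p = 1.02e-05), while PDCD1LG2, which encodes PD-L2, rose by 0.72 ± 0.09 (adjusted p = 2.47e-05) and CD40 by 0.54 ± 0.07 (adjusted p = 2.22e-05). The costimulatory ligand CD80 had no read in any of the 12 libraries and CD86 had 2 reads in 1 of them, and a count of 0 allows up to 3 reads per library.

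Of 12 tested neighbours in the class II region 4 fell and 2 rose after TGFβ, with a median of 0.02. Those that fell were PSMB8 (-0.54 ± 0.06, edgeR adjusted p = 2.1e-06), PSMB9 (-0.40 ± 0.10, adjusted p = 0.00462), TAP2 (-0.37 ± 0.06) and TAP1 (-0.30 ± 0.06), the immunoproteasome and peptide transporter genes that serve class I. RXRB rose by 0.38 ± 0.07 (edgeR adjusted p = 0.00034). Of 9 tested neighbours of CIITA and CD74, 3 rose and 2 fell. DEXI, which shares 3332 bases with the end of the CIITA row, rose from 8.03 ± 0.83 to 11.5 ± 0.92 CPM (SD, n = 3; 0.52 ± 0.10, edgeR adjusted p = 0.00051). NDST1, near CD74, rose by 0.83 ± 0.08 (adjusted p = 1.89e-06).

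**Figure D5:**
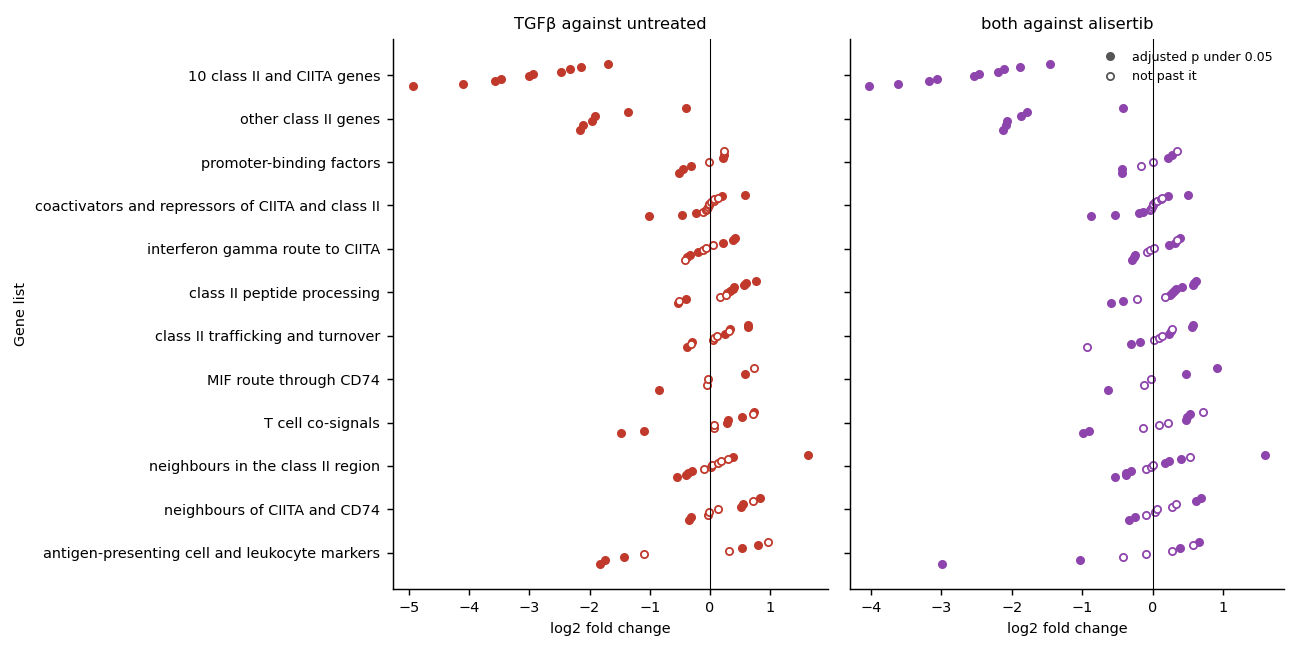
Log2 fold change after TGFβ without alisertib (left) and with it (right) for each tested gene of the 10-gene list and of 11 lists of related genes; filled points passed an adjusted p of 0.05 in edgeR and open ones did not, and the 10 genes are drawn filled at left as a description without a test. The members lie between -4.94 and -1.70 at left and between -4.02 and -1.46 at right, where single genes of other lists, most of them scarce, also reach; HLA-DOB, at -0.39 and -0.43, lies nearest to 0 among the class II genes.

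With alisertib in cells without TGFβ 9 of the 104 related genes changed, where 6.74% of all genes did. CTSS (0.28 ± 0.05, edgeR adjusted p = 0.00516) and PDCD1LG2 (0.41 ± 0.09, adjusted p = 0.0193) rose, and ICOSLG (-0.48 ± 0.13, adjusted p = 0.0435), KAT2B (-0.28 ± 0.08, adjusted p = 0.044) and RMI2 (-0.33 ± 0.08, adjusted p = 0.034) fell. Of the leukocyte markers, LAPTM5 (0.52 ± 0.05, edgeR adjusted p = 5.72e-05) and CD68 (0.35 ± 0.09, adjusted p = 0.0386) rose. The call of CD68 was lost in 10 of 17 alternatives. The calls of ICOSLG, KAT2B, RMI2 and PDCD1LG2 were lost in 12, 10, 8 and 5 of 17 alternatives, the first 3 when any 1 of alisertib replicates 7, 8 and 9 was left out, whereas CTSS lost its call in 1. In cells given TGFβ 4 of the 104 changed with alisertib, where 2.08% of all genes did. LAPTM5 rose again (0.38 ± 0.05, edgeR adjusted p = 0.00142), as did CTSS (0.26 ± 0.05, adjusted p = 0.0181), and CXCR4 rose (0.36 ± 0.07, adjusted p = 0.0225). Without any 1 of TGFβ replicates 4 and 5 or of replicates 10, 11 and 12 of the cells given both, the calls of CTSS and CXCR4 were lost (adjusted p 0.0521 to 0.116), and that of CXCR4 was lost also without TGFβ replicate 6 (0.0672). The difference between the 2 alisertib effects passed the edgeR test for 0 of the 104, where it did for 0.282% of all genes. Of the 104, 3 were at an unadjusted p under 0.05 and 0 passed in DESeq2.

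The labels give a tumour cell line, and markers of professional antigen-presenting cells and other leukocytes were read beside the members. Of 18 markers 4 were at 0 in all 12 libraries (CD1C, CLEC9A, TYROBP and C1QA) and 15 stayed under 1 CPM in every library. PTPRC, which encodes the pan-leukocyte antigen CD45, reached at most 0.18 CPM. The summed level of the list ran from 84.1 to 101.6 CPM in untreated libraries and from 140 to 153 CPM in those given TGFβ. It ran from 124 to 132 CPM after alisertib alone and from 167 to 186 CPM after both agents, so within each alisertib setting it was higher where class II was lower, and its part in the result was not tested. Nearly all of it came from CD68 and LAPTM5, genes of lysosomal proteins that this line expresses. Of the 8 markers that could be tested 2 rose and 3 fell after TGFβ. LAPTM5 rose by 0.79 ± 0.05 (edgeR adjusted p = 1.55e-08), CD68 by 0.53 ± 0.09 (adjusted p = 0.000348). CD14 fell by 1.43 ± 0.26 from a level of at most 2.9 CPM (edgeR adjusted p = 0.000555), ITGAX by 1.83 ± 0.40 (adjusted p = 0.00229) and LYZ by 1.75 ± 0.56 (adjusted p = 0.0234), both from levels under 0.3 CPM.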

How the data were processed

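RNA of 12 MDA-MB-231 libraries was sequenced, 3 in each of 4 groups. Per the labels' protocols, miRNeasy columns gave the total RNA and TruSeq RNA v2 the libraries, a chemistry without strand information. The submitters' processing notes name hg19 and the tools featureCounts, Subread, TopHat and bcl2fastq, with roles, versions and settings not given in the sources used. The authors deposited whole-number read counts per gene without normalisation. The deposited RPKM values served only to check the scaling: their denominators were 1.1 to 1.11 times a library's total count. Coordinates of genes and gene lengths are those of the deposited table (hg19), and promoter sequences are from RefSeq in GRCh38.p14.

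Counts were fitted with edgeR 4.0.16 in R 4.3.3: filterByExpr, TMM, and 1 robust quasi-likelihood fit of all 12 libraries with 8 residual degrees of freedom. Adjusted p-values are Benjamini-Hochberg over 20571 genes, with a threshold of 0.05, and the fit was tested on simulated data. Each SE was obtained from the log2 fold change and F. CPM and printed RPKM use the TMM-scaled library sizes. Totals per library ran from 93701658 to 100328721 counts (CTL), 110282980 to 118220032 (TGFB), 97048328 to 105563951 (ALIS) and 105921831 to 120619368 (Combination), and counts of single genes carry counting error beside the spread of libraries.

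The members and the gene lists were chosen with earlier results of these data known. Named genes are the members, up to 3 called genes per list of at least 1 CPM with the largest fold change in each comparison of TGFβ and up to 2 in those of alisertib, and the 5 genes nearest to CIITA and to CD74 in profile. The profile search left out symbols written like those of clones or non-coding RNA genes. It also left out every symbol ending in P and a number, coding genes among them. Other genes named (HLA-DQ genes, NFYA, CREBBP, EP300, IFNGR2, IRF1, IFI30, TAP1, TAP2, CD80, CD86, ITGAX, LYZ, HLA-DRB9) were chosen after their values were seen, and 1 gene within the rule is not reported here. The alternatives were DESeq2 1.42.0, no filter on low counts, only the 2 groups compared, each library left out in turn, and fits without or with a term for the 4 libraries that stood apart.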

Additional observations from a re-analysis of the deposited data

Results flagged for a closer look

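HLA-DPA1 was picked out because its groups with and without alisertib did not overlap, with opposite directions in cells without and with TGFβ. Without TGFβ its log2 fold change with alisertib was -0.32 ± 0.08 (SE), and all 3 alisertib libraries (52.6 to 61.0 CPM) lay under all 3 untreated ones (61.4 to 75.9 CPM). With TGFβ it was 0.13 ± 0.08, and all 3 libraries given both agents (14.3 to 15.8 CPM) lay above all 3 given TGFβ alone (13.6 to 14.2 CPM). The difference was not tested, because it holds the contrast on which the gene was chosen, and the second change did not pass on its own (edgeR adjusted p = 0.587). Groups without overlap were found in 10.4% of all genes for the first direction and in 11.1% for the second. HLA-DPA1 also shares 4850 bases with HLA-DPB1, and reads of that stretch cannot be told apart.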

How the results depend on the processing

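No paired analysis was possible because the replicate numbers run from 1 to 12 and no groups share them. All 10 members were called lower in cells given both agents against alisertib under each alternative tried, and their fold changes in that comparison kept their direction.

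DESeq2 called 692 genes for alisertib in cells with TGFβ (428 in edgeR), 1 of them a member called higher, and 179 for the difference between the alisertib effects (58 in edgeR), which was 105 without a filter on low counts. Without the 4 libraries that stood apart, alisertib alone called 5073 genes (1387 with all libraries), 9 members lower and 34 of the related genes (9). In cells with TGFβ it called 1434 genes, 1 member lower and 14 related genes (4), and the difference called 744 genes and 5 related genes. With a term for these libraries the counts were 4057 genes, 8 members and 27 related genes for alisertib alone, 1820 genes and 18 related genes with TGFβ, and 382 genes for the difference. With only the 2 groups compared alisertib alone called 623 genes and 1 related gene. The cause of these shifts was not tested.

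Leaving out 1 library at a time, alisertib alone called 718 to 2598 genes, 1 to 7 members lower and 2 to 23 related genes. In cells with TGFβ it called 153 to 754 genes, 0 to 1 member higher, 0 to 1 lower and 1 to 8 related genes, and the difference called 19 to 166 genes. The highest counts of genes in these ranges all came without untreated replicate 1. The difference of HLA-DRB5 ran from -0.13 to 0.14 over these fits and was -0.12 without the 4 libraries, so it has no settled sign. At 20 to 39 reads per library, HLA-DOA with TGFβ is where counting error limits the list most.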
